A study of Mus musculus with 8 samples.

Results

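The genes described here are the Toll-like receptors Tlr1, Tlr2, Tlr4, Tlr5, Tlr6 and Tlr13, the co-receptor Cd14, the adaptor Myd88 and the ligand Hmgb1, measured by array in mouse kidney after ischaemia and reperfusion. They were taken by name: all 18 probes that the array design assigns to these 9 genes, out of 56605 distinct probes for 36826 gene names. Of these, 14 probes for 8 genes entered the tests, because some group had them well above background in both of its mice, among 32216 probes for 21262 genes that met this condition. Tlr6 was the gene left out, because its probe was on none of the arrays well above background.

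RNA came from 8 mice, 2 in each of 4 groups, whose left kidneys were removed 24 h after the operation. Mice are named by their group and the number in their label. Sham mice (1 and 4) had an abdominal midline incision, with no nephrectomy described. IRI mice (30 and 34) lost the right kidney and had the left renal vessels clamped for 45 min before reperfusion, so the clamp and the nephrectomy cannot be told apart. The remaining 4 mice, mimic 6 and 7 and control-miRNA 1 and 5, had that same operation 2 days after a tail vein injection. Each injection held 5 nmol of a small RNA in 200 µl, complexed with polyethylenimine nanoparticles, a cationic carrier of nucleic acids, at a nitrogen to phosphate ratio of 6. The study's text also says that nanoparticles were given in all models, yet it describes an injection for these 4 mice only. Sham and IRI mice are taken here as not injected, which that text does not settle. Every mouse described as injected was also injured. Strain, sex and age are not given in the labels.

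The small RNA of the mimic group has the sequence of mature mmu-miR-5100, shown here because it is the agent that separates the 2 injected groups; RefSeq places it at chr11:60728698-60728718 (plus strand, GRCm38.p6), and the capitals mark its seed, bases 2 to 8.
mmu-miR-5100: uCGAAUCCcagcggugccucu
The sequence injected into control-miRNA mice differs from it and is not shown.

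Toll-like receptors are membrane proteins that bind molecules of microbes and of damaged cells. Tlr2 pairs with Tlr1 or Tlr6 to bind lipoproteins, Tlr4 binds lipopolysaccharide together with Md-2 and receives it from Cd14, Tlr5 binds flagellin, and mouse Tlr13 binds bacterial ribosomal RNA in endosomes. These receptors signal through the adaptor Myd88 to kinases and to the transcription factor NF-kB. In the kidney, tubular epithelium, endothelium and resident and entering leukocytes can express them, and ligands set free by injured cells, such as the chromatin protein Hmgb1, are known to engage Tlr4 and Tlr2.

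Levels are log2 processed signals minus the 75th percentile of the array, so 0 is the 75th percentile, and a level is comparable between arrays for 1 probe but not between probes. Differences are given in log2 units with the standard error of the limma fit, and a gene is called where its Benjamini-Hochberg adjusted p over all genes was under 0.05. The number of arrays limits every value, and the 3 comparisons with sham share the same 2 sham mice. The processed signal at the 75th percentile was 308 and 242 for mimic mice and 408 to 600 for the other 6, so the mimic arrays were the dimmest. Every fit below with array brightness as a covariate therefore cannot separate brightness from the mimic group. Between 53.2% and 58.8% of spots were well above background. Mimic mice also differed most from each other, with an SD of 0.67 for the log2 difference between them over genes, against 0.33 between sham mice. All 12 nephron markers listed for a tissue check, among them the proximal tubule endocytic receptors Lrp2 and Cubn, were well above background on every array.

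Cd14, Tlr2 and Myd88 rose in injured kidneys against sham in all 3 comparisons, and no member was called lower in any of them. Tlr4, at -0.58 in IRI against sham, was called lower there with normexp correction (-0.515, limma adjusted p = 0.0475), with array quality weights (adjusted p = 0.0182) and from the arrays of these 2 groups alone (adjusted p = 0.0393). The members and the gene lists used below were chosen with earlier results of these data known. A count above the share of all genes is therefore no independent test of a list. In IRI against sham, 3 of the 8 members tested were called higher and 0 lower, where 9.44% of all genes were called higher and 8.85% lower (18.3% in either direction). In control miRNA against sham, 3 members were called higher and 0 lower, against 9.54% higher and 7.79% lower of all genes (17.3% in either direction). In mimic against sham, 5 were called higher (Cd14, Tlr2, Myd88, Tlr13 and Hmgb1) and 0 lower, against 15.2% higher and 12.8% lower (28.0% in either direction). The median log2 difference of the 8 members was 0.60 in IRI, 0.85 in control-miRNA kidneys and 0.98 in mimic against sham, and that of all genes was -0.08, -0.05 and 0.11. The member medians rest in part on Tlr5, which was not well above background in sham mice. With Tlr5 at its bound, or at 0 where none could be set, they were 0.02, 0.41 and 0.84. When either sham mouse was left out, Cd14 alone among the members was called in each of these 3 comparisons, and this was also so without IRI 34 in IRI against sham and without control-miRNA 5 in control miRNA against sham. With array brightness as a covariate no member was called in mimic against sham (Cd14 2.84, Tlr2 1.62 and Myd88 0.97, with limma adjusted p = 0.0703, 0.292 and 0.215). As the mimic arrays were the dimmest, this fit cannot separate brightness from the mimic group, and no conclusion is drawn from the lost calls.

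**Figure D1:**
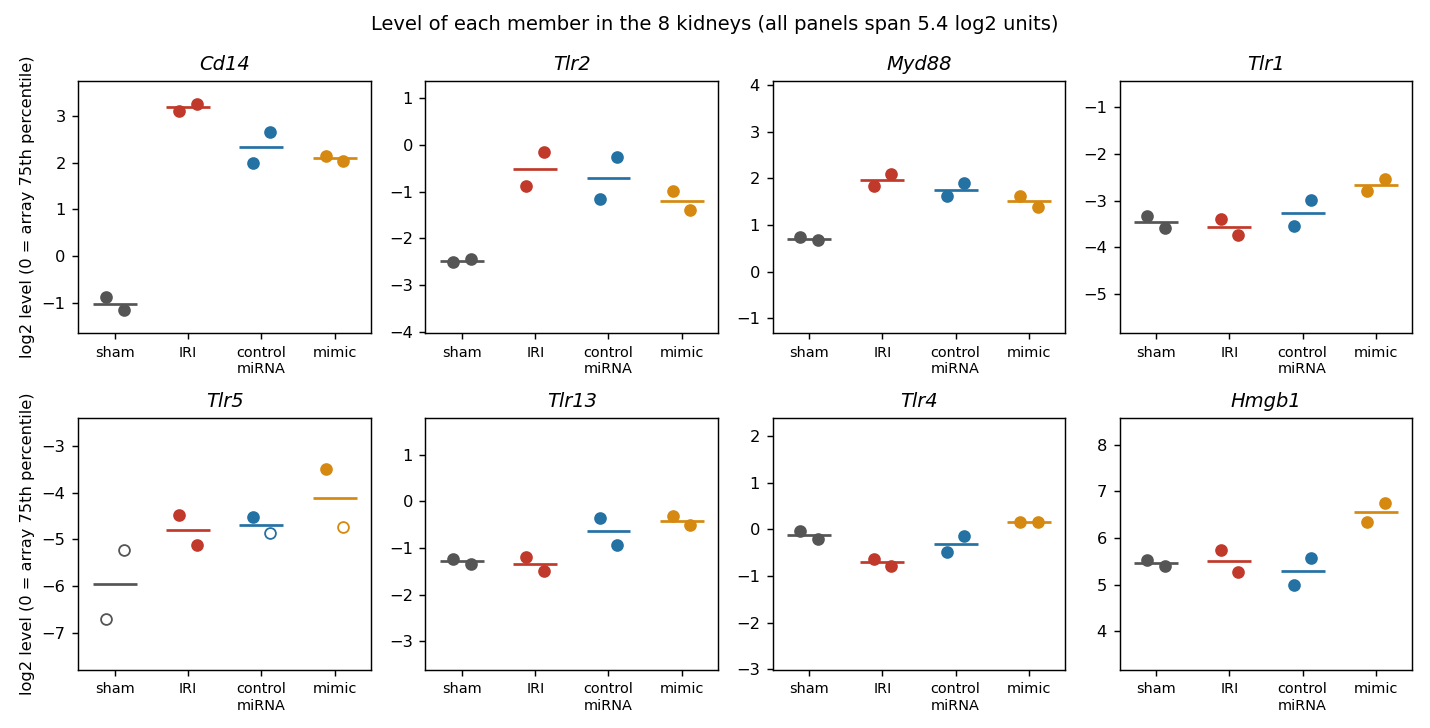
Level of each of the 8 tested members (y axis, log2 signal relative to the 75th percentile) by group (x axis). Each point is 1 mouse, open where the probe was not well above background, and the bar is the mean of the group. Cd14, Tlr2 and Myd88 lie higher in all 6 injured mice than in both sham mice, while Hmgb1 stands apart in the 2 mimic mice.

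Cd14, the surface protein that hands lipopolysaccharide to Tlr4 and assists Tlr2, had the largest difference from sham of the members in all 3 comparisons. Its level was -0.89 and -1.16 in sham mice 1 and 4 and 3.11 and 3.26 in IRI mice 30 and 34. It was 1.99 and 2.66 in control-miRNA mice 1 and 5, and 2.14 and 2.04 in mimic mice 6 and 7. All 6 injured kidneys lay above both sham kidneys, and both IRI kidneys lay above all 4 control-miRNA and mimic kidneys. The difference from sham was 4.21 ± 0.25 in IRI (18.5-fold, limma adjusted p = 0.000726), 3.35 ± 0.25 in control miRNA (10.2-fold, adjusted p = 0.00124) and 3.12 ± 0.25 in mimic (8.67-fold, adjusted p = 0.00129). The probe behind these values lies at chr18:36884727-36884786 (mm9, minus strand). A second Cd14 probe, at chr18:36884969-36885028, gave differences of 4.14, 3.297 and 2.56.

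Among the injured groups, Cd14 was ordered IRI, control miRNA, mimic. It fell by 1.09 ± 0.25 in mimic against IRI (limma adjusted p = 0.0394, lower in 2 of 2 mice), and the second probe fell by 1.58. Control miRNA against IRI gave -0.86 ± 0.25, with a 95% interval of -1.44 to -0.27 that is not adjusted for the number of genes, and an adjusted p of 0.855 in a comparison where 0% of genes were called. Mimic against control miRNA gave -0.23 ± 0.25 (interval -0.82 to 0.35, adjusted p = 0.521), with overlapping mice on the first probe. On the second probe the mimic mice, at 1.11 and 0.68, both lay below the control-miRNA mice, at 1.33 and 1.93 (-0.74 ± 0.27, limma adjusted p over all probes = 0.11). Of these 3 differences, that of mimic against IRI passed the test.

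Tlr2, the lipoprotein receptor, was low in sham kidneys, at -2.51 and -2.45. It reached -0.89 and -0.15 in IRI, -1.15 and -0.26 in control-miRNA and -0.997 and -1.39 in mimic mice. Every injured kidney lay above both sham kidneys, and the injured groups overlapped except for mimic, whose mice both lay below both IRI mice. The difference from sham was 1.96 ± 0.36 in IRI (3.90-fold, limma adjusted p = 0.0144), 1.78 ± 0.36 in control miRNA (3.43-fold, adjusted p = 0.0207) and 1.29 ± 0.36 in mimic (2.44-fold, adjusted p = 0.0396). Mimic against IRI was -0.67 ± 0.36 (interval -1.53 to 0.18, adjusted p = 0.205) and mimic against control miRNA was -0.49 ± 0.36 (interval -1.35 to 0.37, adjusted p = 0.366). In IRI against sham the adjusted p of Tlr2 ranged from 0.00246 to 0.0901 over 18 alternative settings, and it was 0.0641 with brightness as a covariate. The single Tlr2 probe lies at chr3:83640344-83640403 (mm9, minus strand).

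Myd88, the adaptor shared by these receptors and by the interleukin-1 receptor, moved with Tlr2. Its level was 0.73 and 0.67 in sham kidneys, 1.83 and 2.10 in IRI, 1.62 and 1.89 in control-miRNA and 1.62 and 1.39 in mimic mice. The 6 injured kidneys again lay above both sham kidneys. The difference from sham was 1.27 ± 0.19 in IRI (2.41-fold, limma adjusted p = 0.00727), 1.05 ± 0.19 in control miRNA (2.07-fold, adjusted p = 0.0143) and 0.80 ± 0.19 in mimic (1.75-fold, adjusted p = 0.0232). Mimic against IRI was -0.46 ± 0.19 (interval -0.91 to -0.02, adjusted p = 0.116), and mimic against control miRNA was -0.25 ± 0.19 (interval -0.70 to 0.20, adjusted p = 0.374). Its probe lies at chr9:119245322-119245381 (mm9, minus strand).

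Over the 8 arrays, the level of Tlr2 correlated with that of Myd88 at Pearson r = 0.982, Cd14 with Myd88 at 0.978 and Cd14 with Tlr2 at 0.943. These are descriptions over 8 kidneys in which the split between sham and injured mice carries most of the range. The genes most like Cd14 over the arrays were Tmem158 (r = 0.9996), Il1f6 (0.9963), an interleukin-1 family cytokine, and Nek6 (0.996). Those most like Tlr2 were Myd88, Eprn (0.9795) and Fut1 (0.979). Those most like Myd88 were Fut1 (0.9941), Ppm1j (0.9895) and Flot1 (0.9884).

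Because Tlr2 and Myd88 moved together, their promoter windows are shown, each the stretch just before a RefSeq start site, read on the gene's strand. They come from RefSeq, build GRCm38.p6. Cd14 moved with both genes as well, and its window is not reported here. The Tlr2 window is chr3:83841609-83841858 (minus strand), whose start lies 216 bases inside the outer edge of the gene, and the capitals mark overlapping matches to the NF-kB consensus. The Myd88 window is chr9:119340019-119340268 (minus strand).
Tlr2: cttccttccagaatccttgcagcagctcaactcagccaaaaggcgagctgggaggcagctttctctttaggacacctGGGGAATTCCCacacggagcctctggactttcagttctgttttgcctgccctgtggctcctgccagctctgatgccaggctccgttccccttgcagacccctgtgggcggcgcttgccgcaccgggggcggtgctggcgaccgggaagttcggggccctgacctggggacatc
Myd88: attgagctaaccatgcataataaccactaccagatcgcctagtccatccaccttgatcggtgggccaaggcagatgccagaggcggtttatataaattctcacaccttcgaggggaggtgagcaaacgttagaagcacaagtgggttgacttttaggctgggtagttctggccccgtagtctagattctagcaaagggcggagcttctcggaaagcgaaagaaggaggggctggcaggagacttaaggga
The Tlr2 window held 3 matches to the NF-kB consensus, counted on both strands and all within positions -173 to -163 from the start. Of 32851 promoter windows of this length, 7.251% held at least 1 such match. The Myd88 window held none, and it held 1 match to TTCNNNGAA, at positions -46 to -38, a pattern of letters found in 7.02% of windows. Neither window held TGANTCA (in 6.749% of windows) or GAGGAA (in 23.253%). A match describes the letters only.

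Tlr1, which pairs with Tlr2, did not change in step with it on its brighter probe. That probe, at chr5:65315994-65316053 (mm9, minus strand), read -3.33 and -3.58 in sham mice, -3.40 and -3.74 in IRI, -3.55 and -2.98 in control-miRNA and -2.79 and -2.53 in mimic mice. Both mimic kidneys lay above the other 6. Tlr1 differed by -0.11 ± 0.25 in IRI against sham (interval -0.71 to 0.48, limma adjusted p = 0.776), by 0.80 ± 0.25 in mimic against sham (adjusted p = 0.0549) and by 0.91 ± 0.25 in mimic against IRI (adjusted p = 0.0518), so none passed over genes on this probe. With the fit over all probes, mimic against IRI had a limma adjusted p = 0.0485. The dimmer probe, at chr5:65316115-65316174, gave another order. It was not well above background in either sham mouse or in mimic 7, and was higher by at least 1.47-fold in IRI, 1.80-fold in control-miRNA and 1.89-fold in mimic kidneys (limma adjusted p over all probes 0.0333, 0.0121 and 0.00686). The "at least" bounds set each sham array at the higher of its own reading and the lowest signal well above background there. This dimmer probe was kept through the IRI and control-miRNA groups, so its lower sham readings and their p-values follow in part from the filter. The probes cite the same RefSeq transcripts and disagree on whether sham kidneys were lower, and the cause was not tested.

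Tlr6, the other partner of Tlr2, had 1 probe, at chr5:65344365-65344424 (mm9), and it was not well above background on any of the 8 arrays, so no difference is given. Tlr5, the flagellin receptor, was at the edge of detection. Its kept probe, at chr1:184905770-184905829 (plus strand), was well above background in both IRI mice, in mimic mouse 6 and in control-miRNA mouse 1, and in neither sham mouse. The readings were -6.70 and -5.22 in sham mice, -4.47 and -5.12 in IRI, -4.52 and -4.87 in control-miRNA and -3.48 and -4.74 in mimic mice. The probe was kept through the IRI group, so the lower sham readings follow in part from the filter. The differences from sham did not pass (limma adjusted p = 0.205, 0.178 and 0.0537), and a bound of at least 1.5-fold could be set for mimic. A second Tlr5 probe was on none of the arrays well above background.

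Tlr13, the receptor of bacterial ribosomal RNA, differed by group in another way. Its level was -1.23 and -1.33 in sham mice and -1.19 and -1.49 in IRI mice. It was -0.35 and -0.93 in control-miRNA and -0.32 and -0.50 in mimic mice, so the 4 control-miRNA and mimic kidneys lay above the 4 sham and IRI kidneys. The difference was -0.06 ± 0.24 in IRI against sham (interval -0.62 to 0.50, limma adjusted p = 0.88). Tlr13 rose by 0.87 ± 0.24 in mimic against sham (1.82-fold, adjusted p = 0.0361) and by 0.93 ± 0.24 in mimic against IRI (1.90-fold, adjusted p = 0.0461). Control miRNA gave 0.64 ± 0.24 against sham (adjusted p = 0.108) and 0.70 ± 0.24 against IRI (interval 0.14 to 1.26, adjusted p = 1), and mimic against control miRNA gave 0.23 ± 0.24 (adjusted p = 0.508). Arrays of control-miRNA and mimic mice filled 1 row of the slide and the others the second row, so slide row and these groups cannot be told apart. With array brightness as a covariate, the difference of mimic against sham was 1.03 with an adjusted p of 0.292, within a range of 0.0201 to 0.292 over 18 alternatives. The probe lies at chrX:103355773-103355832 (mm9, plus strand), and a second Tlr13 probe was well above background on 1 array only.

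Tlr4 depended on the probe. The brightest of its 3 probes, at chr4:66591199-66591258 (mm9, plus strand), cites an Ensembl transcript and a cDNA clone but no RefSeq transcript. It lies 87.4 kb past the kept probe that cites the RefSeq transcript, at chr4:66503724-66503782, and whether it measures a transcript of Tlr4 was not tested. The brightest probe read -0.04 and -0.22 in sham mice, -0.63 and -0.78 in IRI, -0.48 and -0.15 in control-miRNA and 0.14 and 0.16 in mimic mice. On it, IRI differed from sham by -0.58 ± 0.18 (limma adjusted p = 0.0707) and mimic lay above IRI by 0.86 ± 0.18 (1.82-fold, adjusted p = 0.0387). The RefSeq probe read -3.711 and -3.715 in sham mice, -3.34 and -3.22 in IRI, -2.75 and -4.08 in control-miRNA and -2.90 and -2.75 in mimic mice. On this one IRI lay above sham in both mice, by 0.44 ± 0.39 (limma adjusted p over all probes = 0.48), and mimic lay above IRI by 0.45 ± 0.39 (adjusted p = 0.403). The sign of IRI against sham therefore differs between the probes, and no Tlr4 difference passed on the RefSeq probe. The remaining probe, at chr4:66500344-66500403, also cites that RefSeq transcript and was on none of the arrays well above background.

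**Figure D2:**
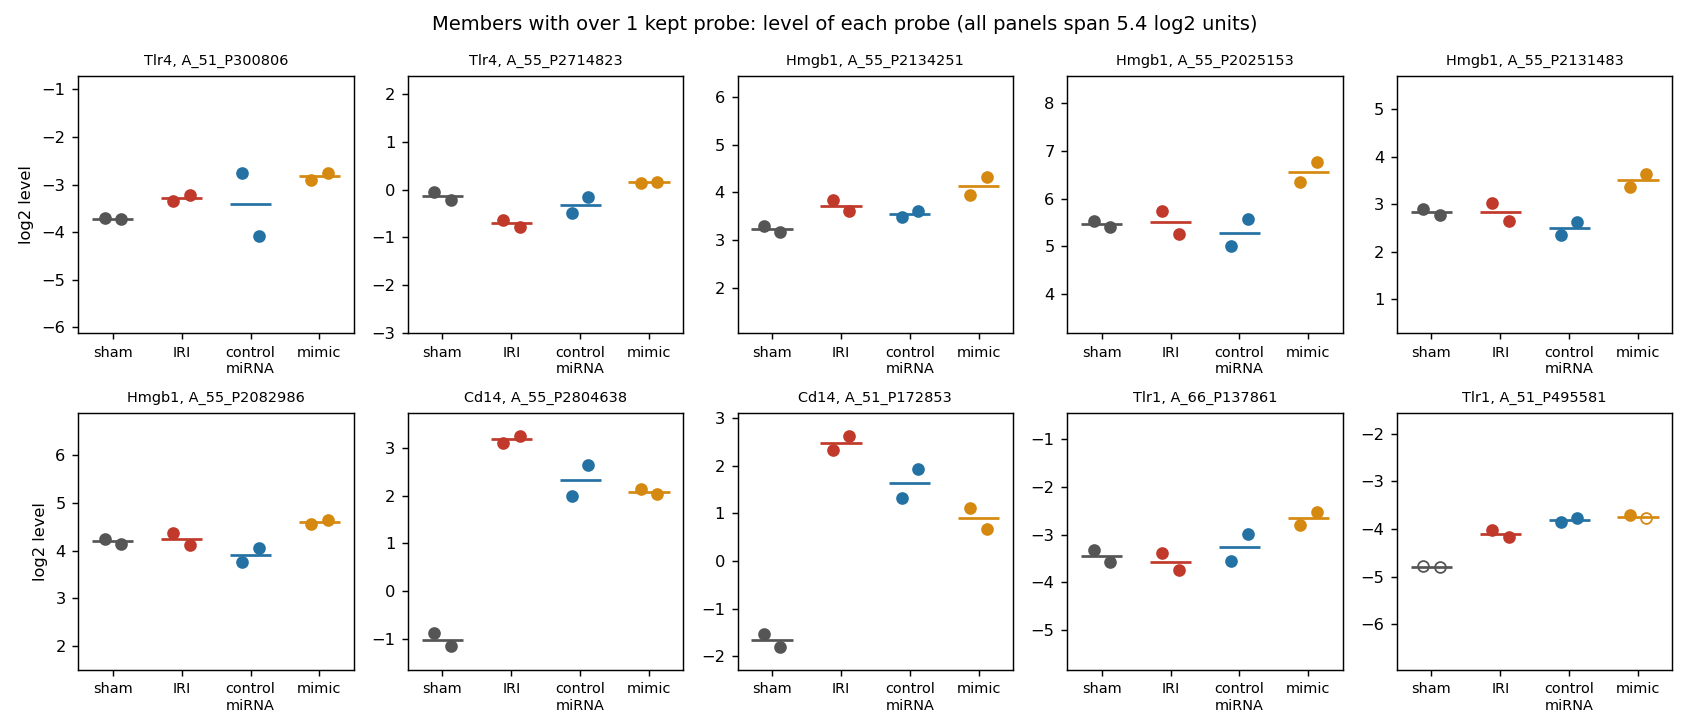
Level of every kept probe (y axis, log2 signal relative to the 75th percentile) of the 4 members with over 1 kept probe, by group (x axis), 1 point per mouse, open where not well above background, with the group mean as a bar. The Cd14 probes give the same order of sham and injured mice, whereas the Tlr4 probes differ in the sign of IRI against sham, at -0.58 and 0.44.

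Hmgb1, the chromatin protein that acts as a ligand once outside the cell, was high in every kidney, and its scaled level was highest in the mimic group. Its brightest probe, at chr5:149860420-149860479 (mm9, minus strand), read 5.53 and 5.403 in sham mice, 5.74 and 5.26 in IRI, 5.00 and 5.57 in control-miRNA and 6.34 and 6.76 in mimic mice. The 2 mimic mice stood above the other 6, which overlapped. Hmgb1 rose by 1.08 ± 0.27 in mimic against sham (2.12-fold, limma adjusted p = 0.0294) and by 1.05 ± 0.27 in mimic against IRI (2.07-fold, adjusted p = 0.0479). Mimic against control miRNA gave 1.27 ± 0.27 (interval 0.62 to 1.92, adjusted p = 0.0662). IRI against sham gave 0.04 ± 0.27 (interval -0.62 to 0.69, adjusted p = 0.94).

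The 3 other Hmgb1 probes had the same sign in these mimic comparisons with smaller sizes, 0.40 to 0.91 against sham and 0.35 to 0.66 against IRI, and of these 6 differences 1 passed (0.91 ± 0.20 against sham, limma adjusted p over all probes = 0.0202). The mimic arrays were also the dimmest, and with array brightness as a covariate Hmgb1 differed by 0.16 in mimic against sham (adjusted p = 0.825), within a range of 0.0144 to 0.825 over 18 alternatives, and by -0.24 in mimic against IRI. Hmgb1 has many near-identical processed copies in the mouse genome, and 2 of its probes also cite non-coding transcripts, so signal from a copy could not be separated. Over the 8 arrays the level of Hmgb1 correlated with Tlr1 at r = 0.898 and with Tlr4 at 0.712, and with Cd14 at 0.141. The genes most like it were Tbce (0.9968), Nckap5 (0.9909) and Gadd45gip1 (0.9904). For Tlr4 they were Tenm1 (0.9927), Aebp2 (0.9876) and Supt6 (0.9873), for Tlr1 Nlrc3 (0.9831), Krt83 (0.9799) and Pick1 (0.9781), for Tlr13 Sult5a1 (0.9797), Fbn1 (0.9707) and Adamts2 (0.9681), and for Tlr5 Ear10 (0.9367), Pira11 (0.9303) and Gprc5d (0.929).

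The injured groups were then compared with each other. In mimic against control miRNA, where the injected RNA differed by design, 0 of the 8 members were called by limma, where 0% of all genes were called higher, lower or in either direction. The signal at the 75th percentile was 308 and 242 on the mimic arrays and 500 and 416 on the control-miRNA arrays. The injected sequence and array brightness therefore cannot be told apart. At an unadjusted p under 0.05 there were 7188 genes, and the smallest adjusted p of any gene was 0.0662. The median difference of the members was 0.35 and that of all genes 0.07. In control miRNA against IRI, 0 members were called, again with 0% of all genes in either direction, 869 genes at an unadjusted p under 0.05 and a smallest adjusted p of 0.0625. The member median was -0.04 and that of all genes 0.01.

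In mimic against IRI, 3 members were called higher (Tlr4, Tlr13 and Hmgb1) and 1 lower (Cd14), where 10.5% of all genes were called higher and 5.53% lower (16.0% in either direction). The Tlr4 call comes from the probe with no RefSeq transcript. With the RefSeq probe in its place the difference was 0.45 (limma adjusted p = 0.414). On the called probes, processed signals before scaling overlapped between mimic and IRI mice for Tlr4 (340 and 270 against 303 and 348). They also overlapped for Tlr13 (247 and 170 against 206 and 213). Those of Hmgb1 were 25000 and 26100 against 25000 and 23100. Cd14 was lower before scaling too (1360 and 995 against 4030 and 5740). Whether the 3 higher calls reflect more transcript was not tested. The called genes made up 3409 of 21262, all with adjusted p between 0.0387 and 0.05. With array brightness as a covariate, with array quality weights or from the arrays of these 2 groups alone, 0 genes were called. This limit holds for every call in mimic against IRI, also those of the lists below. The member median was 0.77 and that of all genes 0.10. Under quantile scaling the median of all genes was -0.005, and the share of called genes that were higher was 51.7%, against 65.5% without it. No member was called with array brightness as a covariate, with array quality weights, from the arrays of these 2 groups alone, or when sham 1, sham 4, IRI 30, IRI 34, mimic 7, control-miRNA 1 or control-miRNA 5 was left out.

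**Figure D3:**
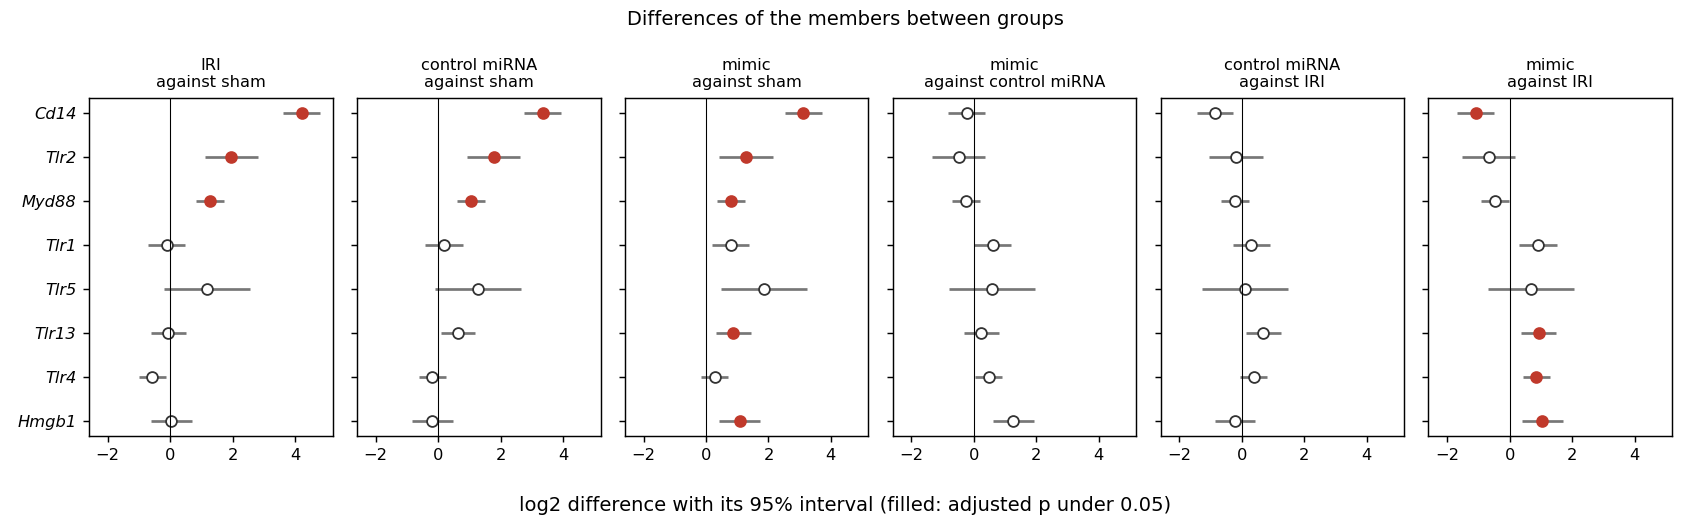
Log2 difference of each tested member (rows) in the 6 comparisons (panels), with its 95% interval unadjusted for the number of genes. Filled points have a limma adjusted p under 0.05 over all genes. Cd14 stands at 4.21, 3.35 and 3.12 against sham and at -1.09 in mimic against IRI, and no point is filled in mimic against control miRNA or control miRNA against IRI.

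Of the 6 other mouse Toll-like receptors listed, Tlr8 and Tlr11 were not kept and 4 were tested. None was called higher, and 1, Tlr12, fell in all 3 comparisons with sham. Of all genes, 8.85%, 7.79% and 12.8% were called lower in IRI, control miRNA and mimic against sham. Tlr12, a receptor of the profilin of protozoan parasites, read 3.43 and 3.46 in sham mice and between 1.55 and 2.28 in the 6 injured kidneys, which all lay lower. It fell by 1.49 ± 0.20 in IRI (limma adjusted p = 0.00516), by 1.75 ± 0.20 in control miRNA (adjusted p = 0.00347) and by 1.35 ± 0.20 in mimic (adjusted p = 0.00601). The nucleic acid receptors Tlr3, Tlr7 and Tlr9 differed from sham by 0.32, -0.31 and -0.39 in IRI, and on the probes used none of them was called in any of the 6 comparisons. A second Tlr3 probe gave 0.97 in IRI against sham. In mimic against IRI it gave -1.25, against 0.20 on the probe used. A second Tlr7 probe gave -1.64 in IRI against sham and 1.40 in mimic against IRI, against 0.11 there on the probe used.

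Of 10 co-receptors and chaperones of the receptors tested, 0 were called higher and 2 lower in IRI against sham, 0 in control miRNA against sham, and 1 higher (Trem1, an amplifying receptor of myeloid cells, 0.74 ± 0.21, limma adjusted p = 0.0398) and 1 lower (the scavenger receptor Cd36, which fell by 1.60 ± 0.23, adjusted p = 0.00571) in mimic against sham. Those counts compare with 18.3%, 17.3% and 28.0% of all genes called in either direction, and a share near these is no result about the list. The falls in IRI were Ly86, partner of the Tlr4-like receptor Cd180, by 1.60 ± 0.35 (adjusted p = 0.0248), and Ly96, which encodes Md-2, by 1.94 ± 0.49 (adjusted p = 0.0389). The Ly96 probes disagree. The brighter probe read 4.97 and 4.50 in sham mice, 3.09 and 2.51 in IRI, 2.90 and 3.56 in control-miRNA and 4.55 and 5.98 in mimic mice, and its levels followed those of the Itgam probe used here at r = 0.9989 over the 8 arrays. The dimmer Ly96 probe differed by 0.50 in IRI against sham and by -0.99 in mimic against IRI, against -1.94 and 2.47 on the brighter probe. Against IRI, mimic kidneys had Ly96 (adjusted p = 0.0387), Cd180 (1.55 ± 0.32, adjusted p = 0.0387) and Trem1 (0.92 ± 0.21, adjusted p = 0.0394) called higher and Cd36 lower (-1.79 ± 0.23, adjusted p = 0.0387). Of the 10 tested these were 3 higher and 1 lower, where 10.5% of all genes were called higher and 5.53% lower.

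Among adaptors and kinases downstream of the receptors, 4 of 20 tested were called higher and 1 lower in IRI against sham, 5 higher and 0 lower in control miRNA, and 3 higher and 3 lower in mimic. In either direction, 5, 5 and 6 of 20 stand beside 18.3%, 17.3% and 28.0% of all genes. These shares are near the background in all 3 comparisons and are no result about the list. Tirap, which bridges Tlr2 and Tlr4 to Myd88, rose by 1.14 ± 0.20 in IRI, 0.97 ± 0.20 in control-miRNA kidneys and 1.26 ± 0.20 in mimic (limma adjusted p = 0.0112, 0.02 and 0.00683). The ubiquitin ligase Traf3 rose by 1.01 ± 0.16 in IRI (adjusted p = 0.0094) and 0.98 ± 0.16 in control miRNA (adjusted p = 0.0113), and Ikbkg, the regulatory subunit of the IkB kinase, by 1.46 ± 0.33 and 1.55 ± 0.33 (adjusted p = 0.0278 and 0.024), where its other probes gave 0.26 and 0.87 in IRI. Ube2n, a ubiquitin-conjugating enzyme, was called higher in all 3 (0.89, 0.80 and 0.78), while another Ube2n probe gave -0.867, -0.988 and -1.003. Irf7, an interferon regulatory factor, read 1.96 and 1.76 in sham mice, 2.24 and 2.22 in IRI, 2.97 and 3.303 in control-miRNA and 3.02 and 3.34 in mimic mice. It was called in control miRNA and mimic against sham (1.28 ± 0.20 and 1.32 ± 0.20, adjusted p = 0.00917 and 0.00621) and in mimic against IRI (0.95 ± 0.20, adjusted p = 0.0387), but not in IRI against sham (0.37 ± 0.20, adjusted p = 0.232). In control miRNA against IRI it differed by 0.91 ± 0.20 (adjusted p = 0.728). Irf5 was called lower in IRI (-0.71 ± 0.19, adjusted p = 0.0427) and mimic (-0.70 ± 0.19, adjusted p = 0.0345; -0.03 on its other probe), and the kinases Tbk1 (-0.77 ± 0.20, adjusted p = 0.03) and Ripk1 (-0.57 ± 0.16, adjusted p = 0.0418) in mimic, where other Ripk1 probes gave -0.94 and 0.72. In mimic against IRI, Irak1 was called lower (-0.64 ± 0.16, adjusted p = 0.0461) and Traf6 higher (1.37 ± 0.36, adjusted p = 0.0486), and 4 other Traf6 probes gave -0.33, -1.29, -0.35 and 1.87. With Irf7, 2 of the 20 were called higher and 1 lower in mimic against IRI, where 16.0% of all genes were called in either direction. That share is near the background and is no result about the list. Myd88 and Tirap were thus both higher than sham in every injured group, while the receptor-proximal kinase genes Irak1, Irak2 and Irak4 were not called against sham.

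Genes listed as negative regulators of the pathway changed in both directions. Whether any of them, Nfkbiz included, restrained it in these kidneys was not tested. Of 17 tested, 6 were called higher and 1 lower in IRI against sham, 7 and 1 in control miRNA, and 6 and 1 in mimic. Of all genes, 9.44%, 9.54% and 15.2% were called higher in these comparisons and 8.85%, 7.79% and 12.8% lower. Socs3, an inhibitor of cytokine receptor signalling, read -1.67 and -1.31 in sham mice and 1.63 to 3.33 in injured kidneys, a rise of 4.50 ± 0.32 in IRI, 3.58 ± 0.32 in control-miRNA kidneys and 3.44 ± 0.32 in mimic (limma adjusted p = 0.000969, 0.00192 and 0.00164). Nfkbiz, a nuclear IkB protein, rose by 2.75 ± 0.25, 2.25 ± 0.25 and 1.89 ± 0.25 (adjusted p = 0.00145, 0.00298 and 0.0042). Atf3, a stress-induced repressor, was higher by at least 11.7-fold, 8.84-fold and 7.51-fold. Nfkbia (0.81, 0.92 and 1.14) and Tnip2 (0.89, 0.75 and 1.11) were called in all 3, Tnip1 in IRI (0.70), Tnfaip3 (0.88) and Irak3 (at least 2.50-fold) in control miRNA, and Socs1 in mimic (1.08). Atf3 and Irak3 were not well above background in sham mice and were kept through injured groups. Their lower sham readings and calls therefore follow in part from the filter. Sigirr, a decoy receptor that dampens Toll-like receptor signalling, was the 1 gene called lower, at -1.08, -0.88 and -0.90. Usp18 was the 1 gene of the list called in mimic against IRI (0.77 ± 0.20, adjusted p = 0.0476), where 16.0% of all genes were called.

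Other ligands that injured tissue supplies included several genes with larger differences than Hmgb1. Of 13 tested, 7 were called higher and 0 lower in IRI against sham, 7 and 0 in control miRNA, and 8 and 1 in mimic. Of all genes, 9.44%, 9.54% and 15.2% were called higher there and 8.85%, 7.79% and 12.8% lower. The list medians were 2.96, 2.80 and 2.19, or 2.39, 2.21 and 2.19 with Tnc and Saa3 at their bounds. S100a8 and S100a9, which form the neutrophil protein calprotectin, a Tlr4 ligand, rose by 3.55 ± 0.36 and 2.96 ± 0.39 in IRI, by 4.67 ± 0.36 and 3.86 ± 0.39 in control miRNA, and by 3.55 ± 0.36 and 2.98 ± 0.39 in mimic. The fibrinogen chains had their largest differences in IRI, where Fgb rose by 7.20 ± 0.63, Fgg by 6.01 ± 0.58 and Fga by 5.33 ± 0.62 (limma adjusted p = 0.00135, 0.00181 and 0.00317). In mimic they stood 3.89, 2.88 and 2.19 above sham, and all 3 were called lower in mimic against IRI (-3.31, -3.13 and -3.15, adjusted p = 0.0387 for each), as was the chaperonin Hspd1 (-1.05 ± 0.26, adjusted p = 0.0451). The matrix protein Tnc was higher by at least 5.48-fold in IRI, 4.61-fold in control-miRNA kidneys and 16.8-fold in mimic, and Saa3, an acute phase protein, by at least 5.23-fold, 8.92-fold and 5.96-fold. Tnc and Saa3 were not well above background in sham mice and were kept through injured groups. Their lower sham readings and calls against sham therefore follow in part from the filter. Tnc (1.62 ± 0.32) and the proteoglycan Bgn (1.15 ± 0.20) were called higher in mimic against IRI (adjusted p = 0.0387 for each). In that comparison 2 of the 13 were called higher and 4 lower, against 10.5% higher and 5.53% lower of all genes. Hmgb2 and Hmgb3, the relatives of Hmgb1, were not called in any comparison with sham (0.84 and 0.64 in IRI).

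**Figure D4:**
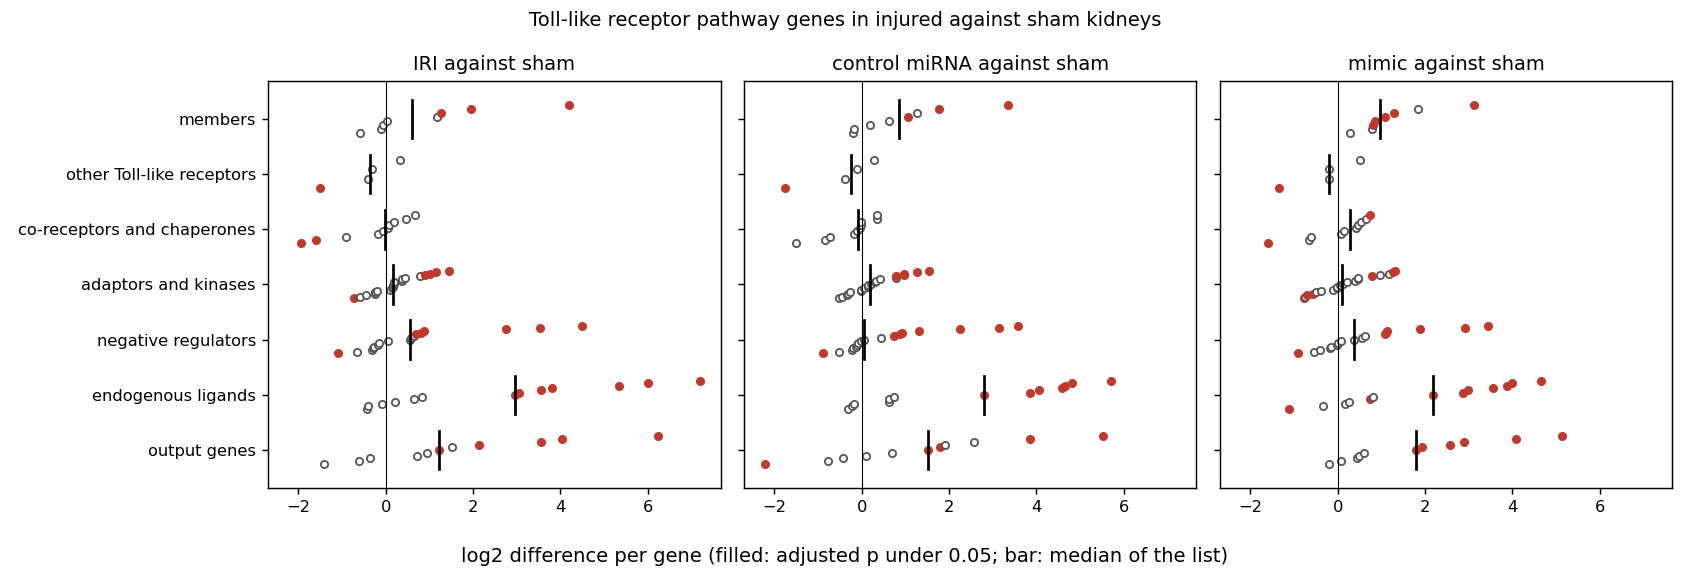
Log2 difference against sham (x axis) of every tested gene of the pathway lists (rows) in IRI, control-miRNA and mimic kidneys (panels). Filled points have a limma adjusted p under 0.05, and the bar is the list's median. The ligand list lies highest, with medians of 2.96, 2.80 and 2.19, and the co-receptor list has a median of -0.005 in IRI.

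Of 17 output genes that the pathway is known to induce, 11 were tested, and Cxcl2, Ccl3, Csf3, Il10, Il12b and Ifnb1 were not kept. In IRI against sham 5 were called higher and 0 lower, in control miRNA 4 and 1, and in mimic 6 and 0. Of all genes, 9.44%, 9.54% and 15.2% were called higher there and 8.85%, 7.79% and 12.8% lower. The list medians were 1.23, 1.52 and 1.80, or 1.23, 0.69 and 1.06 with Ptgs2 and Il6 at their bounds. The neutrophil chemokine Cxcl1 read -3.18 and -3.62 in sham mice and 2.75 and 2.95 in IRI, a rise of 6.25 ± 0.41 (75.9-fold, limma adjusted p = 0.000891), with 5.52 ± 0.41 in control-miRNA kidneys and 5.13 ± 0.41 in mimic. The adhesion molecules Icam1 (2.13, 1.80 and 1.94) and Vcam1 (1.23, 1.52 and 1.80) rose in all 3, and Ptgs2, the inducible cyclooxygenase, was higher by at least 4.58-fold, 4.04-fold and 2.09-fold. Il6 was called in IRI (at least 2.47-fold) and mimic (at least 3.54-fold), and Ccl2 in mimic (2.57 ± 0.77, adjusted p = 0.0475). Ptgs2 and Il6 were not well above background in sham mice and were kept through injured groups. Their lower sham readings, their calls and the counts that hold them therefore follow in part from the filter. Tnf and Il1b were not called in any comparison with sham (-0.62 ± 0.23 and 0.72 ± 0.41 in IRI). Ccl4 was called lower in control miRNA against sham (-2.21 ± 0.41, adjusted p = 0.0164) and higher in mimic against IRI (1.91 ± 0.41, adjusted p = 0.0387). In mimic against IRI, 1 of the 11 was called higher and 0 lower, against 16.0% of all genes in either direction.

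Marker lists of the cells that carry these receptors moved in several directions. In bulk tissue, fewer cells of a type and less RNA per cell cannot be told apart. Of 15 macrophage markers tested, 2 were called higher in IRI against sham (the lysosomal Cd68, 2.701 ± 0.21, limma adjusted p = 0.00107, and the monocyte marker Ly6c2, 0.97 ± 0.21, adjusted p = 0.026) and 4 lower (Csf1r, Adgre1, Itgam and Ccr2, at -1.70, -1.13, -2.05 and -0.66). Of all genes, 9.44% were called higher and 8.85% lower in that comparison. Another Csf1r probe gave -0.34. The Itgam probe followed the brighter Ly96 probe at r = 0.9989, as given for Ly96, and whether either measures the gene it is named for was not tested. The mean level of the list lay between 0.10 and 0.37 in sham mice, -0.08 and -0.04 in IRI, 0.10 and 0.27 in control-miRNA and 0.68 and 0.71 in mimic mice, and its summed signal relative to the 75th percentile was 127 to 131, 175 to 180, 174 to 203 and 182 to 195. That sum adds unlike probes and is carried by Ly6c2, without which it was 41.8 to 56.4 in sham, 22.7 to 22.8 in IRI, 28.6 to 32.3 in control-miRNA and 51.8 to 80.5 in mimic mice. Cd163 and Msr1 were not kept. In mimic against IRI 5 of the 15 were called higher (Itgam, C1qc, Csf1r, Adgre1 and Mrc1) and 0 lower, against 10.5% higher and 5.53% lower of all genes.

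Of 9 neutrophil markers tested, 4 were called higher in IRI (S100a8, S100a9, Retnlg and Cxcr2), 5 in control miRNA (with Mmp8) and 4 in mimic. Of all genes, 9.44%, 9.54% and 15.2% were called higher in these comparisons with sham. The mean level of this list was -2.11 to -2.09 in sham, -0.81 to -0.65 in IRI, -0.14 to 0.12 in control-miRNA and -1.03 to -0.22 in mimic mice, but Retnlg, Cxcr2, Mmp8 and Camp were not well above background on every array. Retnlg, Cxcr2 and Mmp8 were well above background in neither sham mouse and were kept through injured groups, so their calls follow in part from the filter. Over the 5 genes that were, the mean was 0.31 to 0.33 in sham, 1.70 to 1.93 in IRI, 2.15 to 2.27 in control-miRNA and 1.48 to 2.09 in mimic mice. The granule genes Mpo, Ltf, Ngp and Mmp9, and Cd177 and Padi4, were not kept, and S100a8 and S100a9 are also on the ligand list. Nephron markers fell, 7 of 12 in IRI, 6 in control-miRNA kidneys and 7 in mimic, against 8.85%, 7.79% and 12.8% of all genes called lower. Tubular injury markers rose with the 3 members too, 7 of 8 in IRI, 7 in control-miRNA kidneys and 8 in mimic. Havcr1 among them was well above background in neither sham mouse and was kept through injured groups, so its lower sham readings follow in part from the filter. The shares of all genes called higher were 9.44%, 9.54% and 15.2%. The mean level of the tubular injury markers was -0.40 to -0.07 in sham and 4.63 to 5.56 in injured kidneys. Their part, and that of the leukocytes, in the levels of Cd14, Tlr2 and Myd88 was not tested.

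The 10 endothelial markers tested had mean levels of 0.14 to 0.37 in sham, -0.50 to -0.39 in IRI, -0.43 to -0.34 in control-miRNA and 0.21 to 0.60 in mimic mice. In mimic against IRI 6 were called higher (Eng, Flt1, Erg, Cdh5, Emcn and Tie1), where 10.5% of all genes were. The 10 tested markers of other leukocytes lay at -1.06 to -0.66 in sham, -2.01 to -1.69 in IRI, -2.13 to -1.66 in control-miRNA and -1.39 to -0.74 in mimic mice. In IRI against sham 1 was called lower (Klrb1c), where 8.85% of all genes were. Klrb1c was kept through the sham group, so its lower readings after injury follow in part from the filter. Klrb1c (2 arrays), Cd3g (3), Flt3 (6) and Nkg7 (7) were not well above background on every array. The means of this list therefore rest in part on readings near background. The endothelial, other leukocyte and macrophage lists, Tlr1, Tlr4 and Hmgb1 all lay higher in mimic than in IRI mice, and the mimic arrays were the dimmest. The part of cell makeup in the member levels was not tested. With brightness as a covariate, mimic against IRI gave -0.19 for Tlr1, 0.37 for Tlr4, 1.15 for Tlr13 and -1.48 for Cd14, none of them called. That fit cannot separate brightness from the mimic group. Of the 4 hepatocyte markers kept, 2 were called lower in IRI against sham (Ttr and Cyp2c29), where 8.85% of all genes were.

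**Figure D5:**
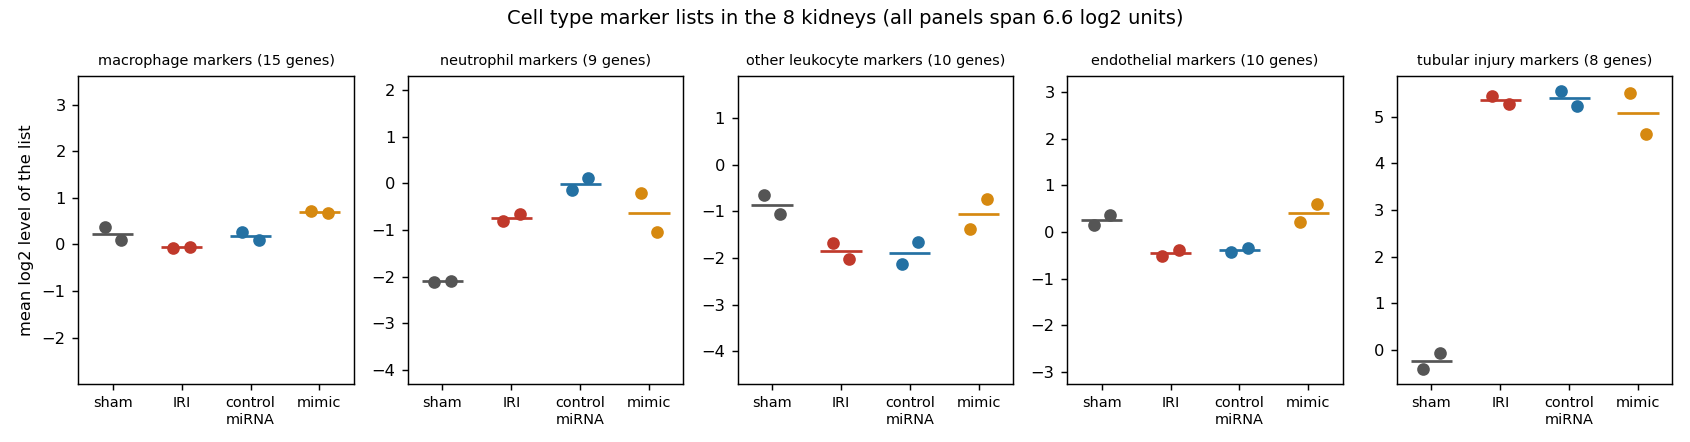
Mean log2 level (y axis) of the tested genes of 5 marker lists by group (x axis), 1 point per mouse and the group mean as a bar, in panels of equal span. Tubular injury markers lie higher in all 6 injured mice than in sham mice, 4 of the 9 neutrophil markers were not well above background on every array, and macrophage and endothelial markers are higher in mimic than in IRI mice.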

How the data were processed

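Kidney RNA of 8 mice was hybridised to 1-colour Agilent arrays, 1 per mouse, on 1 slide with 1 scan time. The processed signal is an intensity that Agilent Feature Extraction 12.0.3.1 background-subtracted, per the file headers and the submitters' processing notes. The mean and background intensity of each spot and its 0 or 1 quality flags stand beside it, per the file headers. A series table deposited by the authors gives ratios on a linear scale, in which each probe appears, from the values, to have been divided by its median across arrays. The scaling of arrays before that step is unknown here.

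Control spots and outlier-flagged spots (79 to 127 per array) were left out, and 0 were saturated. From the log2 signal the 75th percentile of its array was subtracted, and replicate spots were averaged. Of 56605 probes, 33762 were named by RefSeq accession, 9871 by symbol, 310 by an older symbol and 12662 kept the file's name. Probe positions are mm9, per the file headers. The filter required both arrays of some group to be well above background, and the brightest probe that passed stood for its gene. The tests used limma 3.58.1 (lmFit, eBayes) in R 4.3.3 with 1 coefficient per group and all 8 arrays, adjusted by Benjamini-Hochberg over 21262 genes. Single-probe p-values come from the same fit over 32216 probes. Each p-value sets a difference against the spread between mice, pooled over the 4 groups and moderated over genes by eBayes.

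The members and gene lists were chosen with earlier results of these data known. The text names all members, up to 4 genes per list and comparison by smallest p, pathway genes that passed, and for each member the 3 genes with the highest correlation (no clone, predicted or accession names). Tested on simulated data for IRI against sham (200 of 21261 genes changed), the fit recovered 13.4% of genes changed by 1 log2 unit, 85.1% of those changed by 2 and 98.5% of those changed by 3. In the data themselves 18.3% of genes were called in this comparison. The adjusted threshold is looser where more genes change, so these shares do not give the recovery in the data. Alternatives were quantile scaling, normexp background correction, the deposited ratios, other filters and probe rules, array brightness as a covariate, quality weights, single group pairs and leaving out each mouse.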

Additional observations from a re-analysis of the deposited data

How the results depend on the processing

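Over the 8 tested members, 6 comparisons and all other settings, 713 differences kept their sign and their side of the threshold, 90 were no longer called, 20 became called and 35 changed sign. The causes were not tested. Of the sign changes, 1 was of a called difference, Hmgb1 in mimic against IRI (-0.236 with array brightness as a covariate, which also gave Tlr1 -0.186). In IRI against sham, quantile scaling and the authors' deposited ratios turned Tlr1 (0.036 in both), Tlr13 (0.014 and 0.015) and Hmgb1 (-0.122 and -0.121), normexp correction turned Tlr5 (-0.019), and Tlr1 was turned by the mean over probes (0.291) and by brightness (0.192). The probe that cites a RefSeq transcript, a setting chosen after seeing the data, turned Tlr4 in IRI against sham (0.435), control miRNA against sham (0.296, and 0.055 with the mean over probes) and control miRNA against IRI (-0.139). Brightness turned Tlr4 in mimic against sham (-0.068) and Tlr1 in mimic against control miRNA (-0.243). In control miRNA against IRI, Tlr5 was -0.073 by quantile scaling and -0.074 by the deposited ratios.

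Leaving out 1 mouse gave ranges that cross 0 in IRI against sham for Tlr1 (-0.287 to 0.061), Hmgb1 (-0.202 to 0.273) and Tlr13 (-0.212 to 0.093), in control miRNA against sham for Hmgb1 (-0.471 to 0.105) and Tlr1 (-0.095 to 0.477), in mimic against control miRNA for Tlr5 (-0.046 to 1.213), Cd14 (-0.566 to 0.098) and Tlr13 (-0.059 to 0.521), and in control miRNA against IRI for Hmgb1 (-0.506 to 0.07), Tlr2 (-0.634 to 0.263) and Tlr5 (-0.227 to 0.428). The number of members called then ranged from 1 to 3 in IRI against sham, 1 to 3 in control miRNA against sham, 1 to 6 in mimic against sham, 0 to 1 in mimic against control miRNA, 0 to 0 in control miRNA against IRI and 0 to 4 in mimic against IRI. The called genes ranged from 801 to 5955, 693 to 5721, 1099 to 7336, 0 to 6318, 0 to 0 and 0 to 7534. A group left with 1 mouse was assumed to vary like the others.

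In mimic against sham, members called numbered 1 without the filter on dim probes, 0 with brightness, 1 with quality weights and 3 from these 2 groups alone, against 5. In mimic against control miRNA they numbered 2 with normexp correction (Hmgb1 and Tlr5) and 1 with probes well above background on all 8 arrays (Hmgb1), against 0. In mimic against IRI they numbered 7 with normexp correction, 2 with the mean over probes, and 0 with brightness, with quality weights and from these 2 groups alone, against 4. Over all genes, calls moved by over 1.5 times in IRI against sham (3888) to 2450 without the filter, 1857 with brightness, 7938 with weights and 6784 from 2 groups. In control miRNA against sham (3686) they moved to 2278 without the filter and 6039 with weights. In mimic against sham (5963) they moved to 3853 without the filter, 115 with brightness, 3598 with weights and 3038 from 2 groups. In mimic against control miRNA (0) they were 5832 with normexp correction and 1494 with the stricter filter, and in control miRNA against IRI (0) 1 with the stricter filter and 3 with weights. In mimic against IRI (3409) they were 10341 with normexp correction, 11947 without the filter, and 0 with brightness, with weights and from 2 groups.

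No paired analysis was possible because the labels' mouse numbers are shared by 1 pair of groups only, at number 1 in sham and control-miRNA mice. Readings of Tlr5, Tlr6 and the dimmer Tlr1 probe near background carry bounds at most.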
